A study of Mus musculus with 14 samples.

Results

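The cytoskeleton of PiC neurons was described here by 54 genes: tubulins, proteins that bind microtubules along the lattice, proteins of microtubule ends and centrosomes, stathmins, collapsin response mediator proteins (CRMPs), neurofilaments with Gap43, and actins with their monomer-binding and filament-turnover proteins. They were chosen by gene name with earlier results of these data known, so their shares of calls are not those of a list chosen blind. They make up 54 of the 55401 genes in the count table, and 48 of them had enough reads to be tested. A pair of labelled populations was set side by side, neurons that send axons to PrL and neurons that send axons to MeA, each in females and males. There were 4 libraries of PiC-PrL neurons from each sex and 3 libraries of PiC-MeA neurons from each sex, with PiC, PrL and MeA spelled like the sample names. Every group came from wild-type C57BL/6 mice of unstated age, and every group had been infected with AAVretro-EGFP, a recombinant virus that is taken up at axon ends and carried back to the cell body. A library held 4 to 5 EGFP-positive neurons drawn into a glass pipette and amplified with SMART-Seq2, which reads polyadenylated RNA along its length. A library therefore averages a few cells, and fewer cells of a type and less RNA per cell cannot be told apart. Separate animals are not named as the source of the tubes, so p-values measure only the spread between tubes.

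Microtubules are hollow polymers of α- and β-tubulin that give axons and dendrites their tracks for transport and their mechanical support. Their assembly is set by proteins that bind the lattice (MAPs, tau, doublecortins), by proteins that ride or cap the ends (EB proteins, CLASPs, CAMSAPs), by stathmins, which bind free tubulin, and by CRMPs, which bind tubulin and act in axon guidance. Actin filaments shape growth cones and dendritic spines, and profilins and β-thymosins bind the actin monomers from which they grow.

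The end of a tubulin's coding sequence encodes the acidic tail on the outer face of the microtubule where many MAPs bind and where most tubulin modifications are made. The last 30 coding bases of 9 α- and β-tubulin members are shown, 5′ to 3′ on the coding strand, so that the isotype genes can be compared at this tail. They were read from GENCODE M21 transcripts on GRCm38 (mm10), and capitals mark the stop codon.
Tuba1b (chr15:98931582-98931611, minus strand): gagggggaggaagaaggagaggagtacTAA
Tuba1c (chr15:99037980-99038009, plus strand): gaaggagacgatgagggtgaggaatatTAA
Tuba4a (chr1:75215622-75215651, minus strand): tatgaggacgaggatgagggagaagagTAG
Tubb2a (chr13:34074468-34074497, minus strand): gaggaggaggagggtgaagatgaggctTGA
Tubb2b (chr13:34127471-34127500, minus strand): gaggaggaagagggcgaggatgaggctTGA
Tubb3 (chr8:123421653-123421682, plus strand): gaggaatcggaagcccaggggcccaagTGA
Tubb4a (chr17:57080690-57080719, minus strand): gaagaggaggctgaagaggaggtggctTAA
Tubb4b (chr2:25222308-25222337, minus strand): gaggaggaggctgaggaggaggtggctTAG
Tubb5 (chr17:35834982-35835011, minus strand): ttcggagaggaggcagaagaggaggccTAA

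Over the whole coding sequence, Tuba1b and Tuba1c matched at 98.4% of positions (22 differences in 1350 bases), and Tubb2a and Tubb2b at 96.5% (47 differences in 1338 bases). The other pairs of β-tubulins matched at 82.3% to 84.6%. Of all 50-base windows in their transcripts, 75.5% for Tuba1a, 75.1% for Tuba1b, 52.7% for Tuba1c, 49.6% for Tubb2a, 41.3% for Tubb4b and 36.9% for Tubb2b also occur in a transcript of another gene. The shares were 0.184% for Tubb4a and 0.0892% for Tubb5. The treatment of reads that fit several genes is not stated, so levels of the first 6 tubulins are uncertain in their split between near-identical copies, and those of Tubb4a and Tubb5 are not affected in this way.

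Total counts ran from 6132985 to 15392217 per library. Between 18964 and 20014 genes were detected in each of the 3 male PiC-MeA libraries, compared with 12479 to 14908 elsewhere. Counts of the 54 genes made up 2.43% to 3.31% of the total in PiC-PrL libraries and 2.95% to 3.09% in female PiC-MeA libraries, but 2.43%, 2.05% and 1.31% in male PiC-MeA replicates 1, 2 and 3. The mitochondrial share in those 3 libraries was 4.8%, 9.23% and 15.3%, against 3.29% to 3.95% in female PiC-MeA and 3.81% to 12.2% in PiC-PrL libraries. Eif2s3y, a Y-linked gene, had 136 counts or more in each male library and no more than 3 in a female one. All 8 pan-neuronal markers were detected in every group, with a summed level of 10833 to 19737 CPM (counts scaled to a common library total with TMM factors) in PiC-PrL and 7822 to 11710 CPM in PiC-MeA libraries.

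**Figure D1:**
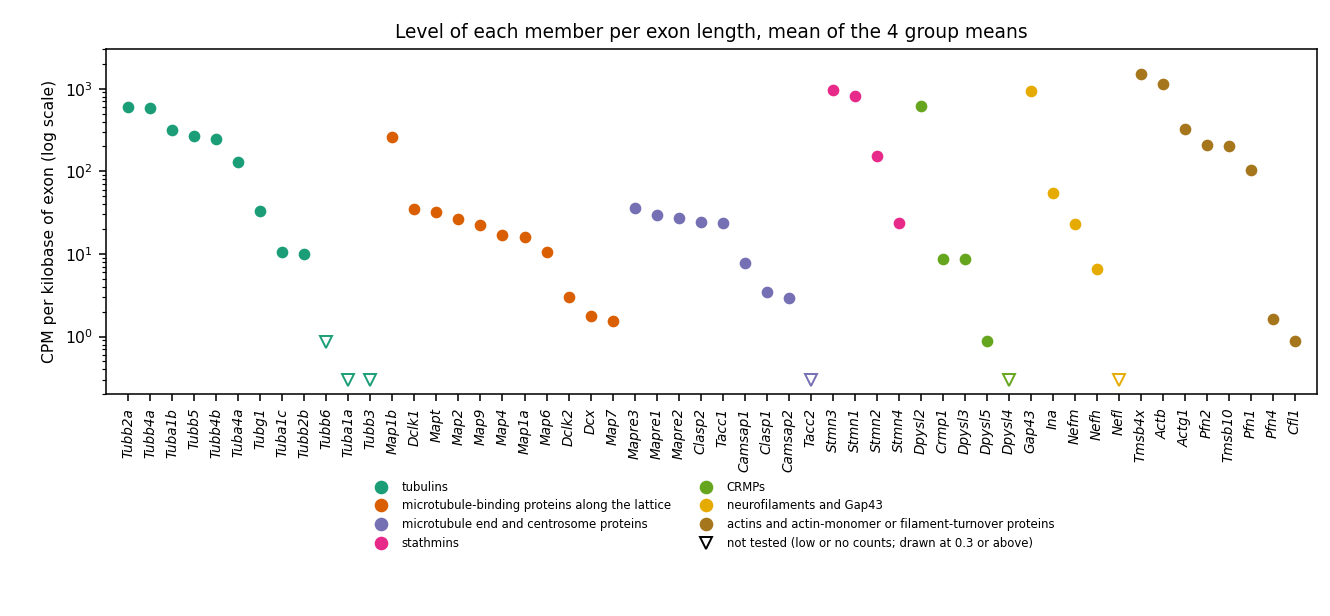
Level of each member per kilobase of exon (CPM per kb, log axis), each point the mean of the 4 group means, coloured by role, with open triangles for the 6 untested members (drawn at the foot of the axis where the level is at or near 0). Tmsb4x, Actb, Stmn3, Gap43 and Stmn1 stand at the top, between 809.1 and 1524 CPM per kb averaged over the 4 groups.

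Many of these genes were among the most highly expressed. Per kilobase of exon, the highest level belonged to Tmsb4x, a β-thymosin that holds actin monomers (1524 CPM per kb, mean of the 4 group means). Actb, the cytoplasmic β-actin, followed at 1144, and then Stmn3 at 952.1, Gap43 at 928.4 and Stmn1 at 809.1 CPM per kb. Dpysl2, which encodes CRMP2, stood at 610.2 and led the CRMPs, and Tubb2a at 594.1 led the tubulins, just above Tubb4a at 576.0 CPM per kb. Map1b at 256.8 led the lattice-binding proteins and Mapre3, an EB protein of growing microtubule ends, led the end and centrosome proteins at 35.50 CPM per kb. Of the 48 tested members, 21 lay among the top 10% of the 14587 tested genes with an exon length. The gaps between neighbours in this order were small beside the spread between libraries: the coefficient of variation over the 14 libraries was 45.26% for Tubb2a and 44.94% for Tubb4a, and 32.03% for Stmn3 and 52.00% for Gap43.

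Tmsb4x and Stmn1 varied least among the tested members. Tmsb4x (X, 167207093 to 167209315) stood at 1609, 1884, 1944 and 2233 CPM in female PiC-PrL libraries, 2247, 1664, 2353 and 3264 in male PiC-PrL, 2425, 2137 and 1560 in female PiC-MeA, and 1535, 2884 and 1628 in male PiC-MeA. All 4 groups overlapped, and its coefficient of variation over the 14 libraries was 24.79%. That of Stmn1, a stathmin that binds tubulin dimers, was 24.07%. The median over the tested members was 52.70%, against 117.7% over all tested genes. Among genes with a mean of at least 100 CPM the 2 medians were close, 48.24% for 32 members and 51.06% for 1948 genes.

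The other 6 members could not be tested. Tubb3, the neuron-enriched β-tubulin (8, 123411424 to 123422015), Dpysl4, Tacc2 and Nefl were listed at 0 in all 14 libraries. Tuba1a, a main α-tubulin of neurons, had 1 count in 2 libraries and 0 in the others. Tubb6 had 0 to 8 counts in 13 libraries and 294 in male PiC-MeA replicate 1. Cfl1, the actin-severing cofilin, was tested but held only 6 to 85 counts per library (0.737 to 5.96 CPM). These values are given as listed: neurons use several of these genes, Tuba1a shares most of its sequence with Tuba1b and Tuba1c, and exons of Nefl overlap those of Nefm on the opposite strand over 32.8% of Nefl. Of Cfl1's exon bases, 16.5% overlap Snx32 on the opposite strand. In GENCODE M21, Tubb3 has no exon overlap with another gene and shares no 50-base window with another transcript. The annotation and settings behind the deposited counts are not stated, and what set these values at or near 0 was not tested.

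Dpysl2, Map1b and Actb were lower in PiC-MeA than in PiC-PrL neurons, both in males and averaged over both sexes, and Pfn4 was found almost only in PiC-MeA neurons. In males, 6 of the 48 tested members passed at an adjusted p of 0.05 and all 6 were lower in PiC-MeA: Dpysl2, Map1b, Gap43, Tacc1, Actb and Tmsb10. Of all 14599 tested genes, 0.603% passed in this comparison, 0.534% as lower and 0.0685% as higher. At an unadjusted p under 0.05, 13 members were lower and 1 was higher, against 4.89% and 17.3% of all genes. Without the 3 male PiC-MeA libraries 11807 genes were tested, so part of the 14599 entered the test through that group. Shares over all genes in comparisons with male PiC-MeA include such genes, and shares without them were not counted. The direction of the calls over all genes depended on the tool and on the libraries in the fit. With all libraries edgeR called 10 genes higher and 78 lower, the DESeq2 Wald test 1476 higher and 546 lower, and limma voom 2172 and 445. With only the 2 male groups edgeR called 786 higher and 201 lower. The 6 members were called lower by each of these. Averaged over both sexes, 5 members passed: Dpysl2, Map1b, Actb and Pfn1 were lower in PiC-MeA and Pfn4 was higher, against 0.822% of all genes passed, 0.63% as lower and 0.192% as higher. At an unadjusted p under 0.05, 12 members were lower and 1 was higher in that average, against 5.27% and 12.1%. In females, no member and no gene passed (0% of 14599) with edgeR's quasi-likelihood test, while 2 members were higher and 3 lower at an unadjusted p under 0.05, close to the 5.78% and 5.31% of all tested genes. The DESeq2 Wald test called 3 members in females and limma voom called 1, against 628 and 31 of all 14599 tested genes. The contrasts within males, within females and over both sexes share libraries. With edgeR's quasi-likelihood test the differences within each sex were not shown to differ, since no member passed the interaction. The DESeq2 Wald test called 6 members for the interaction, limma voom 5 and edgeR without a filter 4. Of all genes tested, these fits called 1156, 729 and 84.

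**Figure D2:**
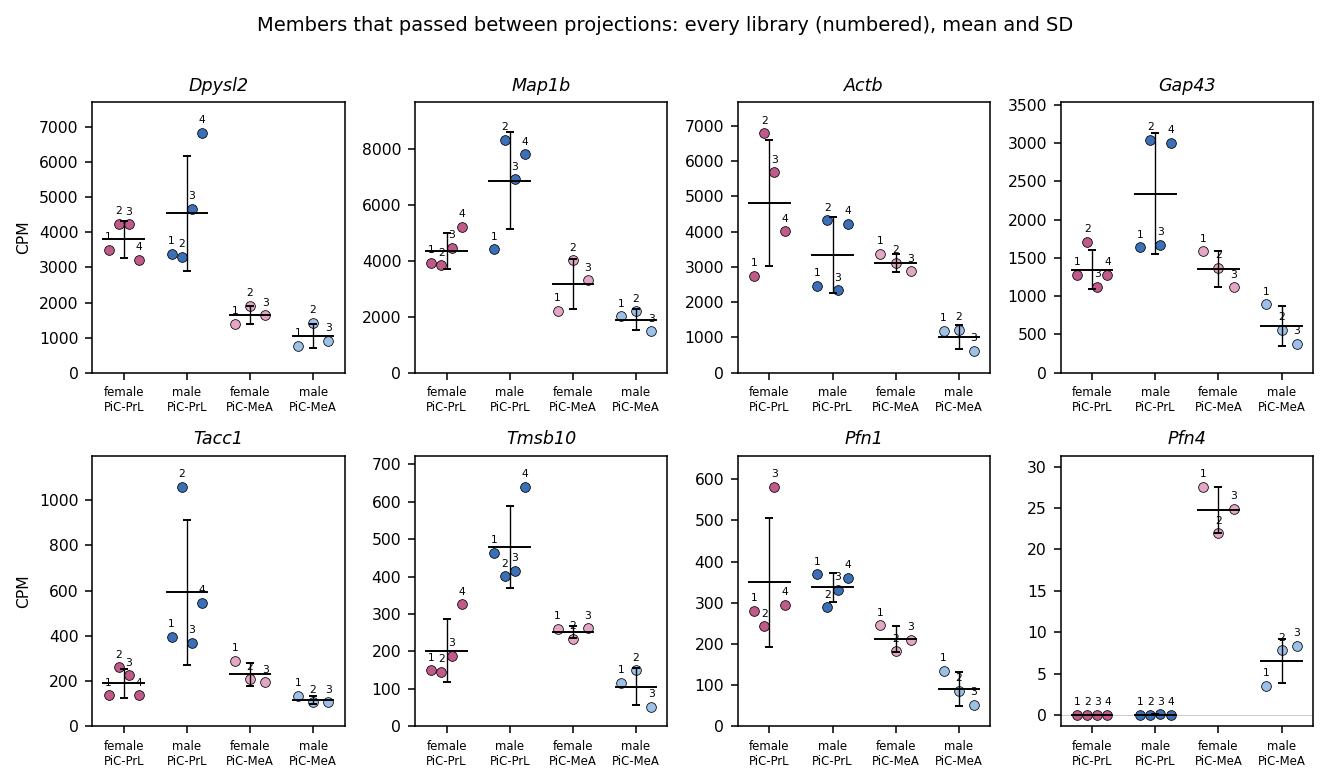
Level in CPM of the 8 members that passed between projections in males or over both sexes. Each point is a library, numbered by replicate, with the mean as a line and the SD as a bar; Dpysl2 in all 6 PiC-MeA libraries lies below all 8 PiC-PrL libraries, and Pfn4 is at or near 0 in PiC-PrL.

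Dpysl2 encodes CRMP2, which carries tubulin dimers and promotes axon growth (14, 66802864 to 66868688). It stood at 3502, 4244, 4232 and 3217 CPM in female PiC-PrL libraries and at 3390, 3313, 4671 and 6827 CPM in males of that projection. In PiC-MeA neurons it stood at 1398, 1906 and 1639 CPM in females and 769.8, 1419 and 918.5 CPM in males. No PiC-MeA library reached the lowest PiC-PrL library in either sex. The log2 difference, PiC-MeA minus PiC-PrL, was -2.14 ± 0.30 (SE) in males (adjusted p = 0.0023), -1.21 ± 0.28 in females (adjusted p = 0.37) and -1.67 ± 0.20 over both sexes (adjusted p = 0.000503). The call in males and the call over both sexes held under every alternative fit run. In females Dpysl2 was called by edgeR without a filter (adjusted p = 0.000522) and by the DESeq2 Wald test (0.0208). The other CRMPs did not pass: Crmp1 in males differed by -0.56 ± 0.84, Dpysl3 by -1.21 ± 1.06, and Dpysl5, with 0 to 2.44 CPM in male PiC-PrL and 6.34 to 12.6 CPM in male PiC-MeA libraries, by 3.70 ± 2.2 (adjusted p = 0.377).

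Map1b, a MAP of growing axons that also remains in adult neurons (13, 99421446 to 99516540), was the most abundant lattice-binding gene. Its levels were 3913, 3834, 4453 and 5208 CPM in female PiC-PrL and 4403, 8304, 6904 and 7793 CPM in male PiC-PrL libraries. They were 2223, 4013 and 3298 CPM in female PiC-MeA and 2013, 2190 and 1481 CPM in male PiC-MeA libraries. Male groups did not overlap, whereas female PiC-MeA replicate 2 lay within the female PiC-PrL range. The log2 difference was -1.85 ± 0.27 in males (adjusted p = 0.0032), -0.45 ± 0.25 in females (adjusted p = 0.556) and -1.15 ± 0.18 over both sexes (adjusted p = 0.00451). The call in males missed the threshold without the 3 PiC-PrL libraries of lowest gene detection (0.054). The other 10 tested lattice-binding genes did not pass. The median over all 11, Map1b included, was 0.06 in males and -0.45 in females, against 0.16 and -0.06 over all tested genes. Map2, the dendritic MAP, differed by 0.08 ± 0.42 in males, and Mapt, which encodes tau, by -0.28 ± 0.42.

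Gap43, a membrane protein of growth cones and presynaptic terminals (16, 42248442 to 42340651), was lower in PiC-MeA than in PiC-PrL neurons of males. Levels were 1274, 1711, 1122 and 1283 CPM in female PiC-PrL, 1639, 3046, 1672 and 3002 in male PiC-PrL, 1585, 1373 and 1117 CPM in female PiC-MeA, and 892.5, 559.9 and 378.4 CPM in male PiC-MeA libraries. The 3 male PiC-MeA libraries were the lowest of the 14, and the female groups overlapped. The log2 difference was -1.94 ± 0.34 in males (adjusted p = 0.014) and 0.01 ± 0.32 in females (adjusted p = 1). The interaction, the sex difference in PiC-MeA minus that in PiC-PrL, was -1.95 ± 0.45 (adjusted p = 0.152). The call in males was lost without male PiC-PrL replicate 2 (adjusted p = 0.0535), male PiC-MeA replicate 2 (0.0887) or male PiC-MeA replicate 3 (0.061), and without the 3 PiC-PrL libraries of lowest gene detection (0.137). The neurofilament genes did not pass: Ina differed by -0.66 ± 0.49 in males, Nefm by -0.40 ± 0.66 and Nefh by -0.13 ± 1.46.

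Tacc1, a coiled-coil protein of centrosomes and microtubule plus ends (8, 25154552 to 25256588), stood at 137.8, 260.7, 225.9 and 137.1 CPM in female PiC-PrL and 394.6, 1059, 368.9 and 546.4 CPM in male PiC-PrL libraries. It stood at 289.6, 208.5 and 195.0 CPM in female PiC-MeA and 136.6, 106.0 and 106.7 CPM in male PiC-MeA libraries. The male PiC-PrL libraries were the 4 highest and the male PiC-MeA libraries the 3 lowest of the 14. The log2 difference between projections was -2.35 ± 0.45 in males (adjusted p = 0.024) and 0.28 ± 0.41 in females (adjusted p = 0.963). It no longer passed without male PiC-PrL replicate 2 (adjusted p = 0.074) or 4 (0.0556), or without male PiC-MeA replicate 2 (0.12) or 3 (0.122). It was also lost with upper-quartile factors (0.075), with a replicate block (0.0566) and without the 3 PiC-PrL libraries of lowest gene detection (0.144). Mapre1, which encodes EB1, was lower in all 6 PiC-MeA libraries (127.3 to 165.7 CPM) than in 7 of the 8 PiC-PrL libraries (179.8 to 511.1 CPM), the eighth being male PiC-PrL replicate 2 at 164.3 CPM. That difference, -1.05 ± 0.31 over both sexes, missed the threshold (adjusted p = 0.0646).

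Among the actin genes, Actb (5, 142903115 to 142906754) stood at 2739, 6784, 5676 and 4006 CPM in female PiC-PrL, 2469, 4320, 2333 and 4220 CPM in male PiC-PrL, 3367, 3105 and 2874 CPM in female PiC-MeA, and 1197, 1210 and 625.8 CPM in male PiC-MeA libraries. The male PiC-MeA libraries lay below the other 11, while the female groups overlapped. The log2 difference was -1.72 ± 0.34 in males (adjusted p = 0.029), -0.62 ± 0.32 in females (adjusted p = 0.502) and -1.17 ± 0.23 over both sexes (adjusted p = 0.0248). The call in males was lost without male PiC-PrL replicate 2 (adjusted p = 0.0829) or 4 (0.0918), or without male PiC-MeA replicate 2 (0.0866) or 3 (0.122). The call over both sexes was lost without female PiC-PrL replicate 2 (0.0553), male PiC-PrL replicate 2 (0.0636) or 4 (0.0618), female PiC-MeA replicate 2 (0.0599) or male PiC-MeA replicate 3 (0.0521). Upper-quartile factors, a replicate block and leaving out the 3 PiC-PrL libraries of lowest gene detection also ended both calls (0.075, 0.0544 and 0.17 in males, and 0.0548, 0.0746 and 0.163 over both sexes). Actg1, the cytoplasmic γ-actin, did not pass in edgeR's test in any comparison, and its difference in males was -0.31 ± 0.54. Limma voom called it between male and female PiC-MeA neurons. The coding sequences of Actb and Actg1 match at 88.7% of positions, and 9.12% of the 50-base windows of Actb occur in another gene's transcript.

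Tmsb10, a second β-thymosin (6, 72957347 to 72958748), stood at 149.5, 144.9, 187.9 and 325.9 CPM in female PiC-PrL, 462.9, 400.1, 415.7 and 638.7 CPM in male PiC-PrL, 259.6, 234.3 and 261.8 CPM in female PiC-MeA, and 116.9, 149.5 and 51.97 CPM in male PiC-MeA libraries. The male groups were far apart and the female groups overlapped. The log2 difference was -2.18 ± 0.44 in males (adjusted p = 0.0327) and 0.32 ± 0.41 in females (adjusted p = 0.944). The call was lost when any of 6 male libraries was left out, PiC-PrL replicate 2 (adjusted p = 0.0638), 3 (0.0515) or 4 (0.102) or PiC-MeA replicate 1 (0.0526), 2 (0.0901) or 3 (0.139). It was also lost with upper-quartile factors (0.075), with a replicate block (0.0752) and without the 3 PiC-PrL libraries of lowest gene detection (0.137). Windows of 50 bases shared with other transcripts made up 27% of Tmsb10, mostly with Gm9844. Tmsb4x, its abundant relative, differed by -0.24 ± 0.28 in males.

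The profilins Pfn1 and Pfn4 differed in opposite directions. Pfn1, the widely expressed profilin (11, 70651850 to 70654644), stood at 279.5, 242.6, 580.8 and 294.8 CPM in female PiC-PrL, 368.6, 288.7, 330.7 and 360.5 CPM in male PiC-PrL, 245.3, 182.0 and 210.5 CPM in female PiC-MeA, and 135.5, 85.62 and 52.11 CPM in male PiC-MeA libraries. The male groups did not overlap, and female PiC-MeA replicate 1 was just above the lowest female PiC-PrL library. The log2 difference over both sexes was -1.30 ± 0.30 (adjusted p = 0.049), at the edge of the threshold. It passed under 7 of 22 alternatives, and when 1 library was left out it passed in 4 of 14 fits. Without female PiC-PrL replicate 3 or 4 the adjusted p was 0.0609 or 0.0632, without male PiC-PrL replicate 2, 3 or 4 it was 0.084, 0.076 or 0.0971, without female PiC-MeA replicate 1, 2 or 3 it was 0.0696, 0.0711 or 0.0599, and without male PiC-MeA replicate 2 or 3 it was 0.0992 or 0.103. Pfn2, the neuronal profilin, differed by -0.58 ± 0.25 over both sexes (adjusted p = 0.225), with 382.1 to 1402 CPM in PiC-PrL and 503.7 to 712.0 CPM in PiC-MeA libraries.

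Pfn4, a profilin known mainly from testis (12, 4769022 to 4778813), was detected almost only in PiC-MeA libraries. It had 0 counts in 7 of the 8 PiC-PrL libraries and 1 count in male PiC-PrL replicate 3. It had 339, 290 and 387 counts in female PiC-MeA (27.54, 21.93 and 24.89 CPM) and 44, 96 and 58 counts in male PiC-MeA libraries (3.473, 7.798 and 8.373 CPM). In females this was at least 105-fold higher in PiC-MeA, taking 3 counts per library as the most that a count of 0 allows. In males the ratio of summed levels was 329, with a 95% exact interval of 58.4 to 13076 that covers counting error only. Over both sexes Pfn4 passed (adjusted p = 0.0156), and the comparisons within a sex did not (0.37 in females, 0.079 in males). Pfn4 reached 10 counts only in the 6 PiC-MeA libraries, so it entered the test through the groups in which it was high. Under the filter of 10 counts in 7 libraries it was not tested. The average call was lost with a replicate block (0.102) and without the 3 PiC-PrL libraries in which fewest genes were detected (0.129). Pfn4 was called within females and within males by the DESeq2 Wald test (adjusted p = 2.06e-09 and 1e-05) and by limma voom (0.000303 and 0.000809), and in males also by edgeR on only the groups compared (0.0452). Of its exon bases, 5.15% overlap Fam228b on the opposite strand.

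**Figure D3:**
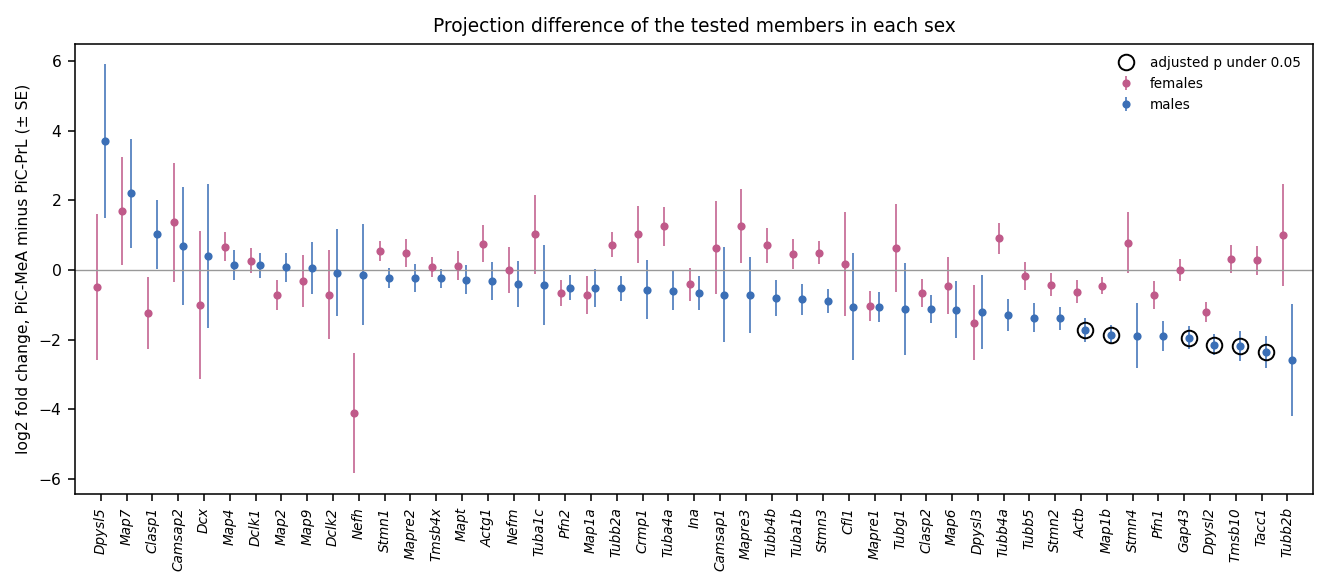
Log2 fold change of 47 tested members, PiC-MeA minus PiC-PrL, in females and males (points, ± SE), ordered by the value in males; Pfn4, near 0 in PiC-PrL, is not drawn. Circles mark the 6 members that passed in males, from Tacc1 at -2.35 to Actb at -1.72.

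Over all 48 tested members the median log2 difference between projections was -0.63 in males, with 38 below 0, against a median of 0.16 over all tested genes. In females it was 0.15, with 21 below 0, against -0.06. Groups that did not overlap were counted as well: in males 14 members were lower and 3 higher in every PiC-MeA library (6.23% and 19.2% of all tested genes), and in females 5 were lower and 9 higher (3.97% and 4.47%). Over both sexes, Dpysl2 and Clasp2 were lower and Pfn4 higher in all 6 PiC-MeA than in all 8 PiC-PrL libraries (0.603% and 0.356%). The members' shares were 29.2% lower and 6.25% higher in males and 10.4% lower and 18.8% higher in females. They were above the share over all genes for lower members in males and for both directions in females. The shares over all genes were not matched for level or spread. The median coefficient of variation was 52.70% over the tested members and 117.7% over all tested genes, and its part in these shares was not tested. Scaling and filter moved the centre of these values. With upper-quartile factors the median in males was 0.52 over all tested genes and -0.25 over the members. With these factors 9 genes passed as higher and 21 as lower in males. With a filter of 10 counts in 7 libraries the medians in males were -0.09 over all tested genes and -0.53 over the members. In a fit of only the groups compared they were -0.15 and -0.78.

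None of the 9 tested tubulins passed between projections in edgeR's test. In males, the DESeq2 Wald test called Tubb5, limma voom called Tuba1b, Tubb4a and Tubb5, edgeR without a filter called Tubb4a and Tubb5, and edgeR without male PiC-MeA replicate 1 called Tuba1b, Tubb4a and Tubb4b. Of 14599 tested genes, DESeq2 called 546 lower and 1476 higher, and limma voom 445 and 2172. Without a filter edgeR called 130 lower and 29 higher of 27912 genes, and without that replicate 126 and 10 of 15810. In females 8 of the 9 were higher in PiC-MeA, with a median log2 difference of 0.73, and in males all 9 were lower, with a median of -0.84. These counts were the same with DESeq2 size factors and with upper-quartile factors. Tuba4a, an α-tubulin of mature neurons (1, 75214228 to 75219865), stood at 347.6, 110.5, 345.5 and 502.1 CPM in female PiC-PrL and 939.9, 728.7 and 669.0 CPM in female PiC-MeA libraries, a log2 difference of 1.26 ± 0.56 (adjusted p = 0.433). Its exons overlap Stk16 on the opposite strand over 37.3% of their bases. In males it stood at 305.6, 365.7, 547.6 and 743.6 CPM in PiC-PrL and 682.1, 211.9 and 86.32 CPM in PiC-MeA libraries, which overlap. Tubb5 had the smallest p of the tubulins in males: 739.9, 1540, 872.1 and 963.9 CPM in PiC-PrL against 634.9, 378.5 and 181.2 CPM in PiC-MeA libraries, without overlap (-1.37 ± 0.42, adjusted p = 0.0815).

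**Figure D4:**
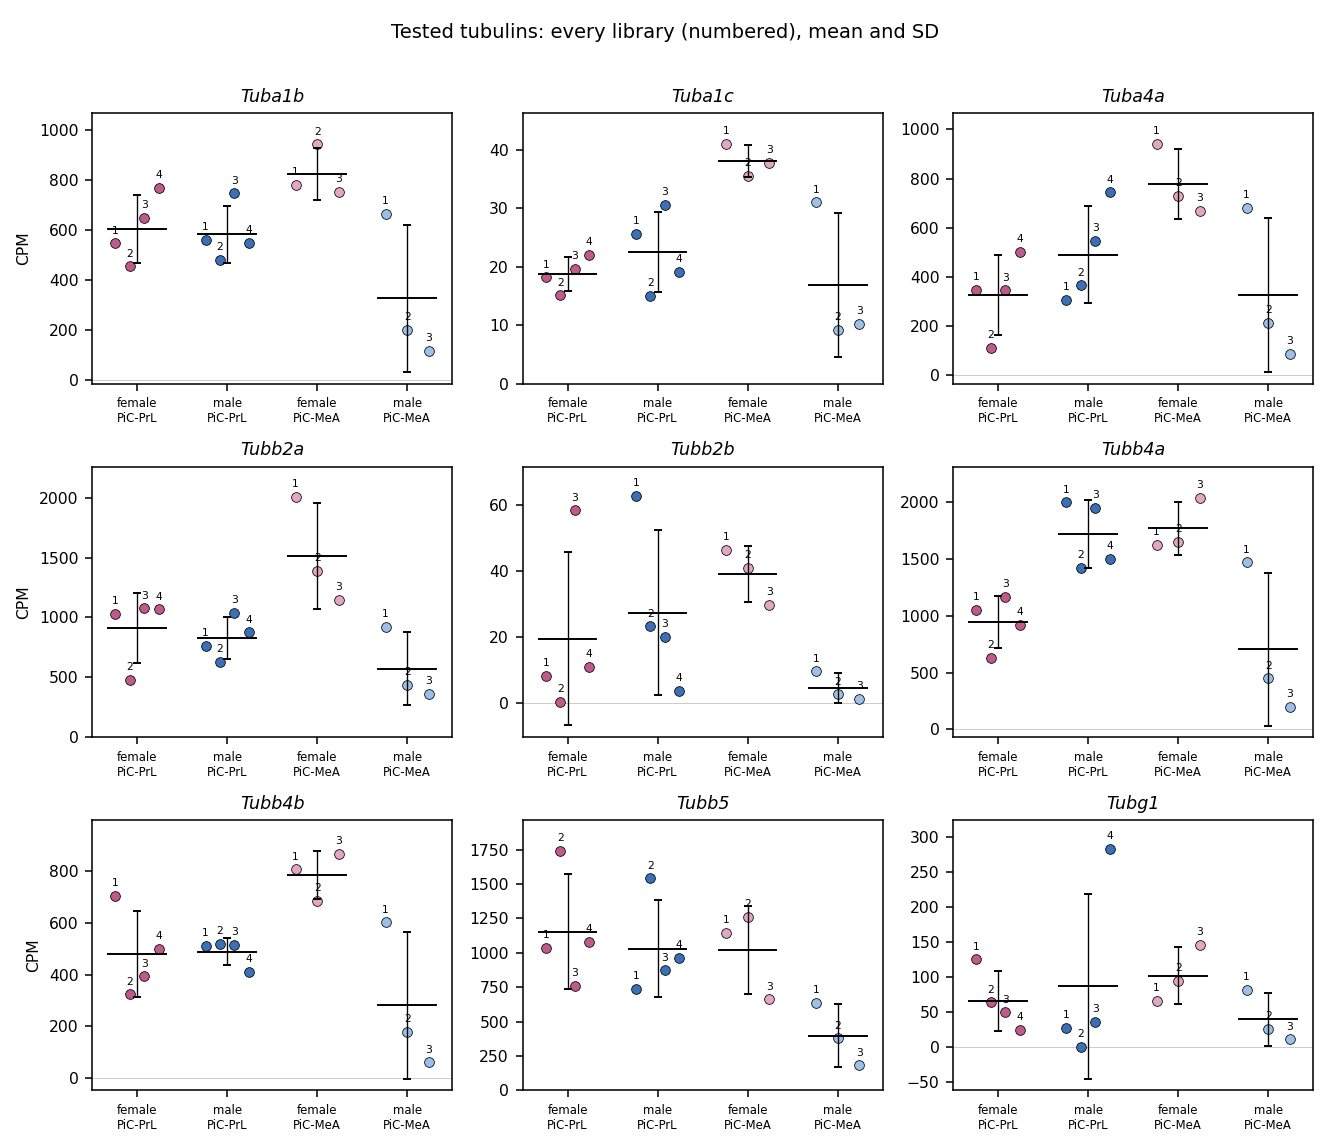
Level in CPM of the 9 tested tubulins, with each library as a numbered point, the mean as a line and the SD as a bar. In 7 of the 9 panels all male PiC-MeA libraries lie below all female PiC-MeA libraries, and male PiC-MeA replicate 1 stands above replicates 2 and 3 in every panel.

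The summed level of the tubulins showed how much the male PiC-MeA libraries differed among themselves. It was 6350 to 7450 CPM in female PiC-MeA, 3816 to 4896 CPM in female PiC-PrL and 4992 to 5758 CPM in male PiC-PrL libraries. In male PiC-MeA replicates 1, 2 and 3 it was 5120, 1895 and 1028 CPM. Replicate 1 was thus within the range of the male PiC-PrL libraries, and the other 2 were far below every other library. Stathmins summed to 3302, 2910 and 1560 CPM in these 3 libraries, against 3473 to 4570 CPM in female PiC-MeA. Replicate 3, which had the fewest counts and the highest mitochondrial share, was the lowest of the 14 libraries for 17 of the 48 tested members and 6 of the 9 tubulins, against 6.47% of all tested genes. Whether depth or RNA quality had a part in this was not tested.

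Sex was compared within each projection. No member passed edgeR's test in PiC-PrL or PiC-MeA neurons, where no gene of 14599 passed either (0%), and none passed in the average over both, where 0.0137% of genes did. DESeq2's Wald test called 2 members in PiC-PrL, 3 in PiC-MeA and 1 in the average, and limma voom called 0, 13 and 0. Of all 14599 tested genes, DESeq2 called 1017, 777 and 647 in these comparisons, and limma voom 8, 1761 and 4. In PiC-MeA neurons 15 members were lower in males at an unadjusted p under 0.05 and none was higher, against 2.05% and 10.3% of all tested genes. In PiC-PrL neurons 4 members were higher in males at that level and none lower, against 5.56% and 8.78%. In the average 6 were lower and 0 higher, against 3.06% and 7.6%. By overlap, 20 members were lower and 5 higher in every male than in every female PiC-MeA library (8.76% and 17.5% of all tested genes), and 3 were higher and 0 lower in PiC-PrL (1.49% and 2.02%). No member was apart in this way over both projections (0.089% of genes higher, 0.0342% lower). The median log2 difference, male minus female, was -0.78 over the members in PiC-MeA and 0.15 in PiC-PrL, against 0.12 and -0.02 over all tested genes. With a filter of 10 counts in 7 libraries it was -0.58 over the members in PiC-MeA, against 0.04 over all tested genes.

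All 9 tested tubulins had a negative log2 difference between male and female PiC-MeA neurons, with a median of -1.36, and they did so under both other scalings. Tubb2a (13, 34074274 to 34078007) stood at 2006, 1387 and 1150 CPM in female and 921.7, 436.1 and 358.6 CPM in male PiC-MeA libraries, without overlap (-1.40 ± 0.40, adjusted p = 0.298). In PiC-PrL it stood at 1029, 476.5, 1077 and 1068 CPM in females and 763.8, 628.4, 1040 and 874.7 CPM in males, which overlap (-0.14 ± 0.34). Actb had the smallest p of the members in PiC-MeA, at -1.62 ± 0.35 (adjusted p = 0.298), and over both projections, at -1.07 ± 0.23 (adjusted p = 0.275). In PiC-MeA, Actb was called with no filter (2.08e-09), by the DESeq2 Wald test (0.00788) and by limma voom (0.0348), and so was Tubb2a (0.0436, 0.0407 and 0.00289). Over both projections, Actb was called with no filter (3.67e-09) and by the DESeq2 Wald test (0.00956). Limma voom called 7 of the 9 tubulins in PiC-MeA, and edgeR without male PiC-MeA replicate 1 called Tuba1b, Tubb4a and Tubb4b. Of 14599 tested genes, limma voom called 211 as lower and 1550 as higher. Of 15810 genes tested in that edgeR fit, 12 were called lower and 2 higher. The 4 stathmins all had a negative value in PiC-MeA (median -0.83) and a positive one in PiC-PrL (median 0.37), also under both other scalings. Stmn3, a neuronal stathmin (2, 181306459 to 181314500), stood at 1424, 1670 and 1067 CPM in female and 1116, 591.8 and 338.4 CPM in male PiC-MeA libraries, which overlap (-1.02 ± 0.36, adjusted p = 0.298). In PiC-PrL it stood at 1032, 779.3, 920.1 and 1228 CPM in females and 1155, 1314, 1415 and 1185 CPM in males.

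The 2 members with the smallest p for a higher level in male PiC-PrL neurons were Tacc1 (1.64 ± 0.39) and Tmsb10 (1.25 ± 0.39, both adjusted p = 0.283). The DESeq2 Wald test called both (adjusted p = 0.00283 and 0.02), among 1017 of all 14599 tested genes. Their libraries are given above and did not overlap between the sexes. Tubb4a (17, 57080066 to 57087782), named after its values were seen, showed the same arrangement: 1050, 631.4, 1166 and 918.1 CPM in female and 1996, 1421, 1950 and 1498 CPM in male PiC-PrL libraries (0.87 ± 0.42, adjusted p = 0.357). In PiC-MeA its order was turned, with 1622, 1648 and 2038 CPM in females and 1469, 448.2 and 200.2 CPM in males (-1.33 ± 0.49, adjusted p = 0.309). The smallest p for a lower level in male PiC-PrL neurons belonged to Map1a, a MAP of mature dendrites and axons (2, 121289600 to 121310832), at 335.6, 582.8, 202.2 and 151.7 CPM in females and 162.9, 186.1, 58.11 and 222.4 CPM in males. These ranges overlap and the difference was -1.02 ± 0.50 (adjusted p = 0.368). Actb was next, at -0.53 ± 0.30 (adjusted p = 0.46).

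Few members pointed up in males in PiC-MeA neurons. Nefh, the heavy neurofilament chain (11, 4938754 to 4948064), stood at 1.056, 3.403 and 5.146 CPM in female and 24.78, 16.49 and 26.27 CPM in male PiC-MeA libraries. In PiC-PrL libraries it ranged from 16.01 to 76.06 CPM in females and from 0.5543 to 85.56 CPM in males, and the difference in PiC-MeA did not pass (2.81 ± 1.67, adjusted p = 0.592). Map2 (1, 66175273 to 66442583) stood at 284.9, 381.3 and 280.6 CPM in female and 429.6, 474.3 and 493.4 CPM in male PiC-MeA libraries, without overlap (0.56 ± 0.45, adjusted p = 0.844). Over both projections the members with the smallest p for a higher level in males were Tacc1 (0.32 ± 0.29) and Pfn2 (0.26 ± 0.25).

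**Figure D5:**
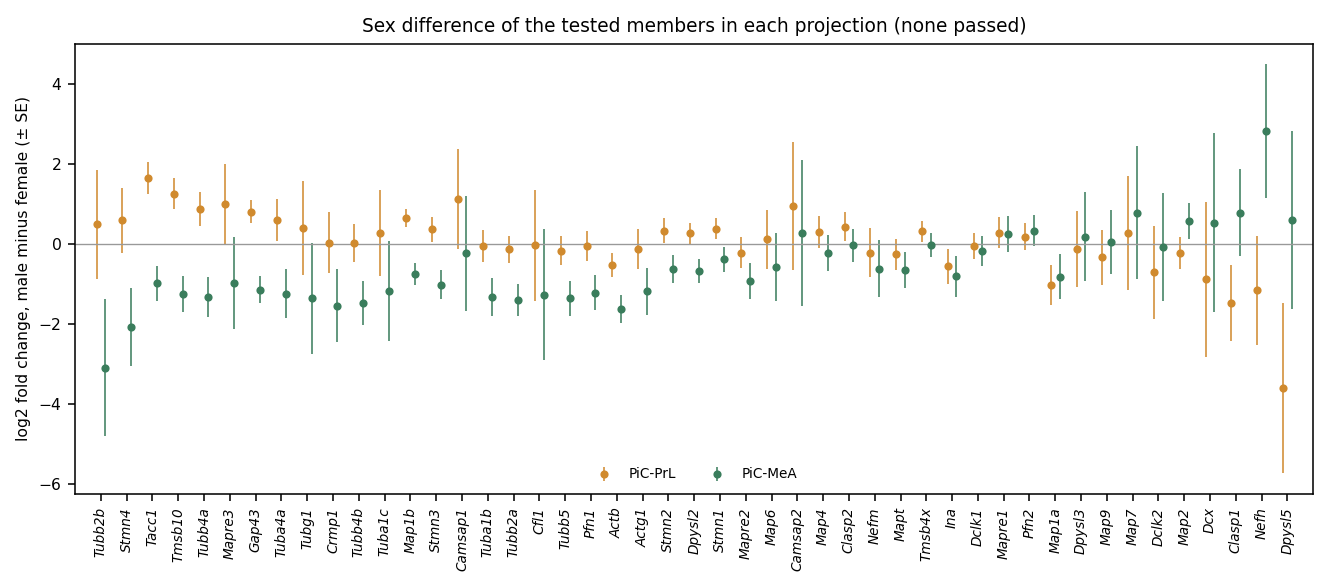
Log2 fold change of 47 tested members, male minus female, in PiC-PrL and PiC-MeA neurons (points, ± SE), ordered by the difference between the 2 values; Pfn4 is not drawn. No member passed edgeR's test in either projection, and all 9 tubulins are below 0 in PiC-MeA.

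The interaction was tested in the same edgeR fit and no member and no gene passed (0%), while 11 members were below 0 and none above 0 at an unadjusted p under 0.05, against 3.75% and 11.8% of all tested genes. DESeq2's Wald test called 6 members here and limma voom called 5, against 1156 and 729 of all 14599 tested genes. The median was -0.95 over the members and 0.31 over all tested genes, and all 9 tubulins and all 4 stathmins were negative. With a filter of 10 counts in 7 libraries the 2 medians were -0.75 and 0.04. The values for Tacc1, Tmsb10 and Tubb4a were -2.63 ± 0.59, -2.49 ± 0.59 and -2.19 ± 0.64, each with an adjusted p of 0.152. Gap43 at -1.95 ± 0.45 and Map1b at -1.40 ± 0.36 had the same adjusted p of 0.152, and by unadjusted p the order was Tacc1, Gap43, Tmsb10, Map1b and Tubb4a.

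Genes that work with these members were read from 5 further lists. Of 34 tested genes of actin turnover, capping and bundling, 1 passed in any comparison: Tpm3, a tropomyosin that lines actin filaments, was lower in male PiC-MeA (116.5 to 225.5 CPM) than in male PiC-PrL libraries (502.9 to 551.3 CPM), with -1.49 ± 0.32 and an adjusted p of 0.0391. Females had 384.1 to 433.1 CPM in PiC-PrL and 361.3 to 407.7 CPM in PiC-MeA libraries. In that test, none of 16 other tubulins and nucleation factors, 24 tubulin folding, modifying and severing enzymes, 19 subunits of Arp2/3 and WAVE complexes and 12 spectrins, ankyrins and adducins passed in any of the 7 contrasts. The median log2 difference between projections in males was -0.54 for Arp2/3 and WAVE genes, -0.60 for the other tubulins and 0.19 for the spectrin group, against 0.16 over all tested genes.

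Markers of neurons and of other cells were read beside these results, and their part in them was not tested. Over both sexes, 1 of 8 pan-neuronal markers (Snap25) and 1 of 8 astrocyte markers (Aldoc) passed as lower in PiC-MeA. The pan-neuronal sum was also lower there in males (7822 to 9683 against 13092 to 19737 CPM). Gene by gene, the 8 pan-neuronal markers were split between projections. Over both sexes 4 were positive and 4 negative (median log2 -0.09), and in males 3 were positive and 5 negative (median -0.14). All 8 astrocyte markers had counts in male PiC-MeA libraries, summing to 1592 to 1967 CPM, against 1834 to 6411 CPM with all 8 in male PiC-PrL. In female PiC-MeA libraries they summed to 691.3 to 790.5 CPM with Aqp4 and Gjb6 at 0, below the 1664 to 2166 CPM in female PiC-PrL. Inhibitory-neuron markers summed to 106.3, 430.6 and 1781 CPM in male PiC-MeA replicates 1 to 3 and to 42.49 to 164.8 CPM in female PiC-MeA, where Slc32a1 was at 0. They summed to 247.3 to 5494 CPM in female PiC-PrL, again with Slc32a1 at 0, and to 120.1 to 566.0 CPM in male PiC-PrL. Excitatory-neuron markers, all 8 detected in each group, summed to 848.5 to 2161 CPM in male PiC-MeA and 1195 to 1951 CPM in the other groups. Endothelial and mural markers summed to 19.18 to 92.96 CPM in male PiC-MeA libraries, with 6 of 7 detected, against 0.3781 to 2.444 CPM and 4 of 7 in female PiC-MeA. The 5 tested were all higher in male PiC-MeA neurons (median log2 6.65) and none passed. In PiC-PrL libraries this sum was 0.5632 to 121.7 CPM in females (5 of 7 detected) and 18.33 to 139.3 CPM in males (4 of 7). Microglial P2ry12 and endothelial Cldn5 were at 0 in every library, with 7 of 8 microglial markers detected in each group (95.58 to 735.3 CPM). Oligodendrocyte markers overlapped between all groups (337.0 to 2355 CPM, 8 of 8 detected).

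The remaining genes named for their level or rank did not pass in edgeR's test. Mapre3 (5, 30814641 to 30866106) ranged from 0.1842 to 141.5 CPM in female PiC-PrL, 49.79 to 246.8 CPM in male PiC-PrL, 112.4 to 227.5 CPM in female PiC-MeA and 52.55 to 156.7 CPM in male PiC-MeA libraries. Map7, a MAP that recruits kinesin (10, 20148471 to 20281590), was at 3.138 to 6.133 and 0.1848 to 9.036 CPM in female and male PiC-PrL libraries. It was at 25.19, 2.495 and 15.95 CPM in female and 22.26, 30.14 and 22.38 CPM in male PiC-MeA libraries, so that only female replicate 2 lay within the PiC-PrL range (1.95 ± 1.10 over both sexes, adjusted p = 0.402). Dpysl5, a CRMP of developing neurons (5, 30711564 to 30799375), varied within every group. Female levels were 27.76, 0, 2.425 and 6.525 CPM in PiC-PrL and 14.22, 0.1512 and 5.275 CPM in PiC-MeA libraries. The male PiC-PrL libraries held 2.436, 0.4074, 0.1390 and 0 CPM and the male PiC-MeA libraries 10.73, 6.336 and 12.56 CPM, without overlap.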

How the data were processed

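The table deposited by the authors holds raw counts for each gene, with a column per library, without pooling or normalisation as far as the whole numbers show. Per the submitters' processing notes, the build was mm10 and the tools were HISAT2 2.2.1, featureCounts 2.0.1, Trimmomatic 0.39 and SAMtools. Strand setting, annotation release and treatment of shared reads were not given in the sources used. Genes were kept by filterByExpr (minimum count 10, minimum total 15), scaled by TMM and tested by robust quasi-likelihood in edgeR 4.0.16 (R 4.3.3), 1 mean per group, in 7 contrasts, and p-values were adjusted by Benjamini-Hochberg over all 14599 genes tested at 0.05. Differences are given as male minus female or as PiC-MeA minus PiC-PrL. Positions and exon lengths come from GENCODE M21, where 55141 of 55401 gene identifiers matched. Levels are CPM with TMM factors. Depth was 6132985 to 15392217 counts per library, and floors and intervals cover counting error only.

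The members and lists were chosen with earlier results of these data known. Members named with values in every library or their range were those that passed, the 2 with the smallest p per direction in each contrast within a sex or projection and in both averages, and the one with the highest level per kb in each role group. Of the other lists, up to 2 passing genes per direction and contrast were named. The coding end of 1 α-tubulin is not reported here. The fitting was tested on simulated data. Alternatives were DESeq2 size factors, upper-quartile factors, no filter, the Wald test of DESeq2 1.42.0, a minimum of 10 counts in 7 libraries, voom of limma 3.58.1 with quality weights, a replicate block, only the groups compared, and leaving out libraries. Genes with an adjusted p of NA in DESeq2 stayed uncalled.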

Additional observations from a re-analysis of the deposited data

Results flagged for a closer look

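In groups of 4 libraries, a single library stood far from the others for 4 of 38 member and group combinations tested. The nominal rate is about 1 in 20. That rate was not checked for levels of this kind, some near 0, so whether 4 is unusual is not known. Tubb2a in female PiC-PrL replicate 2 was 477 CPM, against 1029 to 1077 CPM in the other 3 libraries. Pfn1 in female PiC-PrL replicate 3 was 581 CPM, against 243 to 295 CPM. Nefh in male PiC-PrL replicate 3 was 85.6 CPM, against 0.554 to 11.9 CPM. Dpysl5 in male PiC-PrL replicate 1 was 2.44 CPM, against 0 to 0.407 CPM.

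For 3 members every male library lay above every female library in PiC-PrL and below every female library in PiC-MeA. Of all tested genes, 1.49% lay apart as higher in PiC-PrL and 8.76% as lower in PiC-MeA. The share of genes with both was not counted, so whether 3 members is unusual is not known. The difference between the log2 sex differences was -2.63 for Tacc1 (1.64 in PiC-PrL, -0.99 in PiC-MeA), -2.49 for Tmsb10 (1.25 and -1.25) and -2.19 for Tubb4a (0.87 and -1.33). The interaction test of edgeR gave an adjusted p of 0.152 for each, so none passed.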

How the results depend on the processing

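Of 681 results for a named gene under an alternative, 611 kept their direction and side of the threshold, 53 lost the call, 17 gained it and none changed sign. The calls of Dpysl2 held under all alternatives run, in males and over both sexes, as did that of Map1b over both sexes. Counts are given below as members and then all genes, and the cause of each shift was not tested.

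Upper-quartile factors gave 3 and 30 between projections in males, 3 and 45 over both sexes, and 1 gene for sex in PiC-MeA. With no filter, sex gave 38 genes in PiC-PrL, 5 and 45 in PiC-MeA and 1 and 17 averaged, projection gave 1 and 46 in females, 159 genes in males and 452 averaged, and the interaction 4 and 84. A filter of 10 counts in 7 libraries gave 1 gene for sex in PiC-PrL, 1 averaged, and 75 genes between projections averaged. The DESeq2 Wald test gave 2 and 1017 for sex in PiC-PrL, 3 and 777 in PiC-MeA, 1 and 647 averaged, 3 and 628 between projections in females, 11 and 2022 in males, 10 and 1492 averaged, and 6 and 1156 for the interaction. Voom with quality weights gave 8 genes for sex in PiC-PrL, 13 and 1761 in PiC-MeA, 4 genes averaged, 1 and 31 between projections in females, 13 and 2617 in males, 8 and 1277 averaged, and 5 and 729 for the interaction. A fit of only the groups compared called 987 genes between projections in males.

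When the 3 PiC-PrL libraries that had fewest genes at 10 counts were left out (7619 to 7883, against 8951 to 10309 in the other 5), 1 member and 16 genes remained called between projections in males (Dpysl2, with Map1b at an adjusted p of 0.054), 2 and 31 over both sexes (Dpysl2 and Map1b), and 1 gene for sex averaged.

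When 1 library was left out at a time, members called ran from 2 to 10 and genes from 20 to 139 between projections in males, 3 to 7 and 39 to 128 over both sexes, and 0 genes to 1 gene in females. For sex they ran from 0 to 3 and 0 to 14 in PiC-MeA, 0 genes to 1 gene in PiC-PrL and 1 to 2 genes averaged, and for the interaction from 0 to 1 and 0 to 5. The highest count in males, 10, came without male PiC-MeA replicate 1, and the lowest, 2, without male PiC-PrL replicate 2 or male PiC-MeA replicate 2 or 3.

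Residuals of 19 same-numbered pairs of libraries, over all tested genes, correlated at -0.0367 to 0.0495. Pairs with different numbers were not compared, so whether replicate numbers pair the libraries is not known. With a replicate block, 3 members and 38 genes were called between projections in males (Dpysl2, Gap43 and Map1b), 2 and 43 over both sexes (Dpysl2 and Map1b), and 1 gene for sex averaged. Leaving out the 3 male PiC-MeA libraries changed no count of calls for sex in PiC-PrL or projection in females.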
